A study of Mus musculus with 4 samples.

Results

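The genes described here encode proteins of the Z-disc, the M-band and the machinery that builds thick and thin filaments in striated muscle. The list holds 40 genes, picked by function but with earlier results of these data known, so the list itself was not tested. Of these, 39 had a probe set carrying a single gene symbol on the array. Xirp2 had none. Each gene was read from 1 probe set, and 37 of the 39 lay above the signal filter used for the test (a mean signal over the 4 arrays above 65.6, the median of all probe sets). They are 37 of 10874 genes tested. Myoz3 and Tmod4 lay below it and were not tested.

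The RNA came from C2C12 cells, an immortalised mouse myoblast line that fuses into myotubes after serum withdrawal, and was collected 48 hours after the switch from 10% fetal bovine serum to 2% horse serum. The medium held 25 mM glucose throughout. All cells stably expressed a short hairpin RNA and had been grown with 750 µg/mL hygromycin B before the switch. In the shControl group (2 arrays) the hairpin was a non-targeting one, and in the shLSD1 group (2 arrays) it was directed against LSD1, the histone demethylase encoded by Kdm1a. The series names 1 plasmid product and 1 stable selection per group, without saying how many hairpin sequences the product holds, so the knockdown and the selected cells cannot be told apart. The labels do not say whether the arrays of a group came from separate cultures, so the p-values reflect array-to-array spread that may be purely technical.

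In a sarcomere, thin filaments are anchored by alpha-actinin at the Z-disc, while thick filaments of myosin are crosslinked at the M-band and held in register by titin, which spans from one to the other. Scaffold proteins such as nebulin, and capping and elongating proteins at filament ends, set the length of thin filaments. Newly made myosin needs dedicated chaperones to fold, and most of these genes are switched on as myoblasts differentiate and fuse.

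Kdm1a, the target of the hairpin, had signals of 4603 and 4588 on the shControl arrays and 922 and 1034 on the shLSD1 arrays, or 21.3% of the control level. The cells were labelled differentiating myoblasts, and markers of differentiating muscle were bright: 10 of 10 were above the filter, with a summed signal of 152572 to 155767 in shControl and 107474 to 119414 in shLSD1. Of these, 8 fell and 0 rose, with a median log2 fold change of -0.58, while 7.09% of all tested genes fell and 8.75% rose. Among the 8 were Tnnt3 (-0.83), Myh3 (-0.64) and Myog (-0.61), and only the falls of Tnnt3 and Myh3 were still called with no intensity trend. Cdh15 (0.18) and Chrna1 (-0.13) had no call. Of 9 tested markers of cycling myoblasts 7 rose and 0 fell, with a median of 0.32 and a summed signal of 22572 to 22736 in shControl and 27850 to 28190 in shLSD1. Birc5 (0.28) and Id1 (-0.22) had no call. With no intensity trend, only the rise of Myf5 among these 7 was still called. Myf5 rose by 1.28, and the rises of Cdk1 (0.28 to 0.37 with 1 array left out) and Ccna2 (0.33 to 0.40) were lost without either shControl array or with no intensity trend. The fibroblast markers had a summed signal of 47528 to 48386 in shControl and 34300 to 39177 in shLSD1. Of 6 tested, 1 (Pdgfra, 0.37) had no call, 0 rose and 5 fell. Those with the smallest adjusted p were Col3a1 (-0.31), Pdgfrb (-0.76) and Lum (-1.60), and none of these 3 calls held when either shControl array was dropped or with no intensity trend (that of Lum nor with no filter), with ranges of -0.36 to -0.26, -1.01 to -0.50 and -2.02 to -1.19. Among 3 tested smooth muscle markers Acta2 fell (-0.20, and -0.25 to -0.15 with 1 array left out, which did not hold on dropping either shControl array, with no filter or with no intensity trend). The smooth muscle markers Myh11, Cnn1, Lmod1 and Myocd were below the filter. Of these, Cnn1 had signals of 13.7 and 12.8 in shControl and 80.65 and 167 in shLSD1. No cardiac marker passed, with 4 of 8 tested and a summed signal of 589 to 707 on the 4 arrays. Myh6, Nppa, Myl7 and Tbx5 were below the filter. The 5 adipocyte markers with a probe set were all below the filter, with a summed signal of 39.5 to 103. The differentiating muscle and fibroblast markers mostly fell, as did the genes below, while the cycling myoblast markers mostly rose. The part of any of these markers in the results was not tested.

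Most of the Z-disc, M-band and assembly genes were lower in the knockdown. Of the 37 tested, 23 fell, 1 rose and 13 did not pass the test (limma, Benjamini-Hochberg adjusted p under 0.05 over all tested genes). Among all tested genes 7.09% fell and 8.75% rose. The median log2 fold change, shLSD1 minus shControl, was -0.50, against 0.0036 over all tested genes, and 32 of 37 values were negative, against 49.1% of all tested genes. In 27 genes both shLSD1 signals lay below both shControl signals, a pattern that 29.4% of all tested genes showed, and in 1 gene both lay above (30.7% of all tested genes). The falls ranged from 0.35 to 1.43 on the log2 scale. In RNA from a whole culture, fewer differentiated cells and less of a transcript per cell cannot be told apart.

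A fit with 1 array left out keeps 1 array in that group, so a gene's own spread comes from the other group alone. Its calls say nothing of spread in the group cut to 1 array. The count of falls moved with the arrays used. It was 13 without shControl replicate 1, 14 without shControl replicate 2, 22 without shLSD1 replicate 1 and 29 without shLSD1 replicate 2, while the calls over all tested genes also dropped, to 228 and 233 falls without the respective shControl arrays, from 771. Of the 23, 10 passed in every alternative fit that tested them, and these were Neb, Actn2, Myoz2, Csrp3, Myom1, Lmod2, Lmod3, Klhl41, Unc45b and Ankrd2. The shLSD1 arrays themselves differed: 33 of 37 genes were higher in replicate 2 than in replicate 1, with a median difference of 0.16 on the log2 scale, against 50.7% and 0.0028 over all tested genes. Against the mean of the shControl arrays the median gene stood at -0.62 in shLSD1 replicate 1 and at -0.43 in shLSD1 replicate 2. Between the shControl arrays the median difference was 0.016, and 21 of 37 genes were higher in replicate 2.

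**Figure D1:**
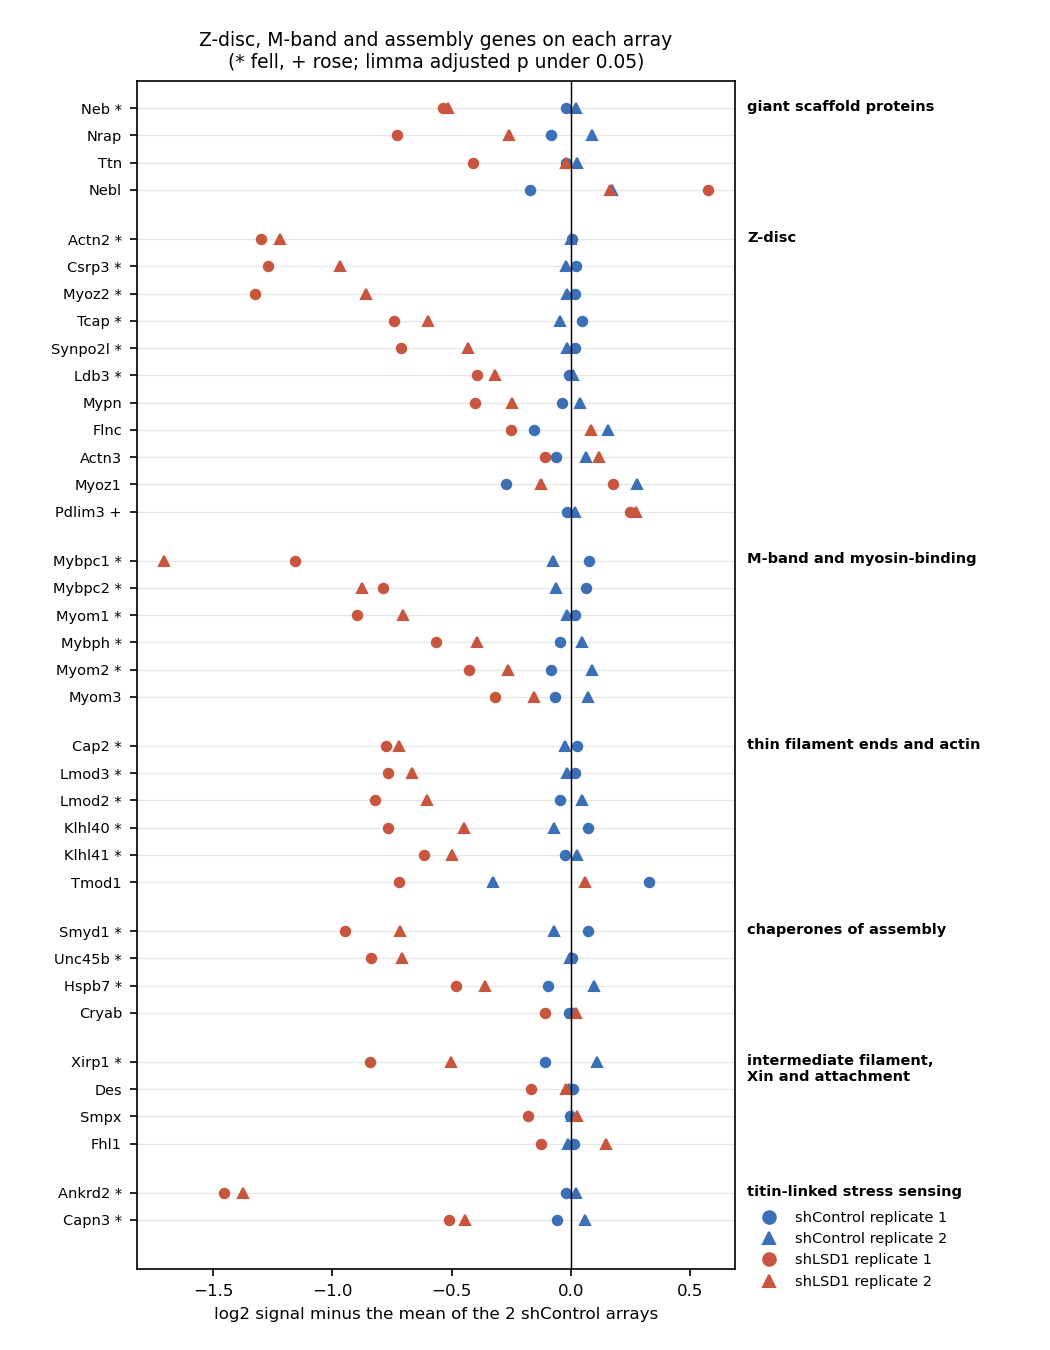
Log2 signal of the 37 tested genes on each array, relative to the mean of the 2 shControl arrays, grouped by role; blue marks are shControl, red marks shLSD1, circles replicate 1 and triangles replicate 2, with an asterisk for genes that fell and a plus sign for the gene that rose. In 27 genes both red marks lie left of both blue marks, and in 33 genes the red triangle (replicate 2) lies right of the red circle (replicate 1).

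Upstream sequences are shown for the 5 genes that fell by more than 1 on the log2 scale and, beside them, for Pdlim3, the only gene that rose. Each is the 250 bases before the annotated start in RefSeq (GRCm38.p6), with capitals marking matches, on either strand, to CAGCTG or CACCTG (E-boxes of the kind bound by MyoD and myogenin), CATTCC (the core bound by TEAD factors), the MEF2 motif or the CArG box bound by SRF. Csrp3 has 2 annotated starts and the arrays do not say which was used.
Mybpc1 (chr10:88605153-88605402, minus strand): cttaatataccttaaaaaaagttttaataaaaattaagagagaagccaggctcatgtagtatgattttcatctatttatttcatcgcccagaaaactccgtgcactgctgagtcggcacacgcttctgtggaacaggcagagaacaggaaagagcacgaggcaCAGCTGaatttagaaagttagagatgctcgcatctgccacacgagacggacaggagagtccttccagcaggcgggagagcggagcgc
Ankrd2 (chr19:42035777-42036026, plus strand): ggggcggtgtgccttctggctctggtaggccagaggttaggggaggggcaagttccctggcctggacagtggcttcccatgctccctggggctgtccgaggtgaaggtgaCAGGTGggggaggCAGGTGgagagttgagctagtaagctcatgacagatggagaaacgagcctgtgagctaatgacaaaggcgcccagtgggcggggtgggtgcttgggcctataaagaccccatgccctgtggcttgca
Actn2 (chr13:12340733-12340982, minus strand): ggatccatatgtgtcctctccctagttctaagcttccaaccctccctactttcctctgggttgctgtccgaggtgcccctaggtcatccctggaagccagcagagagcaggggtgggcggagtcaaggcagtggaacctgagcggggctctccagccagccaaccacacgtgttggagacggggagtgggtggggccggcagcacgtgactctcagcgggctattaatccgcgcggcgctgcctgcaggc
Csrp3 (chr7:48848052-48848301, minus strand): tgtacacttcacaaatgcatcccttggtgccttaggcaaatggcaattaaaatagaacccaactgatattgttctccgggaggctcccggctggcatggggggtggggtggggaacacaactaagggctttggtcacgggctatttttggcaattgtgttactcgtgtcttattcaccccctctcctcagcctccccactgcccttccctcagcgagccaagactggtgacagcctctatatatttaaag
Csrp3 (chr7:48843672-48843921, minus strand): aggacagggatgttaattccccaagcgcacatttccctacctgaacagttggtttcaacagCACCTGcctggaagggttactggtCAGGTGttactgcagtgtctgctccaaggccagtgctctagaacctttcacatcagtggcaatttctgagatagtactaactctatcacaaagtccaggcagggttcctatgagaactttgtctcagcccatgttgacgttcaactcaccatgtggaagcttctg
Myoz2 (chr3:123034988-123035237, minus strand): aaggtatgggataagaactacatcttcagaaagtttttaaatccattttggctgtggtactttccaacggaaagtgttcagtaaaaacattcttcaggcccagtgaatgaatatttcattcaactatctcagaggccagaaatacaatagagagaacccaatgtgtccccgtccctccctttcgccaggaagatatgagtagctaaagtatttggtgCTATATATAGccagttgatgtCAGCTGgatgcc
Pdlim3 (chr8:45885237-45885486, plus strand): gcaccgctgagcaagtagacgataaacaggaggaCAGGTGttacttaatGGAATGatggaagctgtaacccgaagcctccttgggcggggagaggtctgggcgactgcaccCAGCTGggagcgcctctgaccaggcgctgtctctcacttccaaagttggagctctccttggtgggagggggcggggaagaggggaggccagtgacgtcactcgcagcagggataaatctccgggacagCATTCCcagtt
The Myoz2 window held a MEF2 match that begins 33 bases before the start and also reads as a TATA-like element, followed by a CAGCTG that begins 12 bases before it. Ankrd2 held 2 matches to CACCTG, at 140 and 127 bases, and of the Csrp3 windows the first held none and the second held 2 matches to CACCTG, at 189 and 165 bases. Mybpc1 held 1 CAGCTG at 87 bases. The Actn2 window held none of these matches, and that of Pdlim3, which rose, held 1 CAGCTG, 1 CACCTG and 2 CATTCC.

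The promoter table held 29 of the 37 tested genes. Of the 18 that fell, 7 had a CAGCTG (38.9%), against 14.7% of all 27025 genes in the table, and 6 had a CACCTG (33.3%, against 19.4%). A MEF2 match stood in 4 of the 18 (22.2%, against 3.42%), a CArG box in 2 (11.1%, against 1.62%) and a CATTCC in 2 (11.1%, against 14.4%). Of the 10 with no call, 2 had a CAGCTG, 4 a CACCTG, 2 a MEF2 match, 2 a CArG box and 4 a CATTCC. MEF2 matches were in Capn3, Klhl41, Myoz2 and Synpo2l, which fell, and in Ttn and Myom3, which had no call. A match is a description of letters and not of a bound site.

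Among the core Z-disc genes, 6 of 11 tested fell, 1 rose and 4 had no call. Actn2, the alpha-actinin gene of all striated muscle, which crosslinks thin filaments at the Z-disc, had signals of 533 and 531 in shControl and 216 and 228 in shLSD1. The arrays of each group lay close together and far from the other group, and the log2 fold change was -1.26 (n = 2 and 2, SE 0.12; limma adjusted p = 7.00e-04), or 41.8% of control. Csrp3, which encodes muscle LIM protein, had signals of 2376 and 2302 against 970 and 1195, a log2 change of -1.12 (SE 0.10, limma adjusted p = 6.46e-04). Myoz2, which encodes the calcineurin-binding Z-disc protein calsarcin-1 of slow and cardiac muscle, had signals of 2684 and 2618 against 1060 and 1462. Its log2 change was -1.09 (SE 0.13, limma adjusted p = 1.93e-03), and the shLSD1 arrays differed from each other by more than those of Actn2 while staying below both shControl arrays.

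The other falls at the Z-disc were smaller. Tcap, the gene for the titin cap telethonin, had signals of 617 and 580 against 357 and 395, with a change of -0.67 (SE 0.11, limma adjusted p = 5.89e-03), and Synpo2l, which encodes an alpha-actinin-binding protein of the synaptopodin family, had 13074 and 12743 against 7869 and 9580 (-0.57). Ldb3, the gene for the PDZ-LIM protein ZASP, had 3793 and 3832 against 2897 and 3060 (-0.36). In these 3 both shLSD1 signals lay below both shControl signals, as in 29.4% of all tested genes. Dropping shControl replicate 1 removed the calls of Tcap (-0.63), Synpo2l (-0.55) and Ldb3 (-0.36), and dropping shControl replicate 2 removed that of Ldb3 (-0.35). Neither Synpo2l nor Ldb3 was called with no intensity trend, nor Synpo2l with the mean of its probe sets (-0.53). Pdlim3, a PDZ-LIM gene whose product also binds alpha-actinin, was the one that rose: its signals were 6864 and 7037 in shControl and 8249 and 8389 in shLSD1, a log2 difference of 0.26 (SE 0.04, limma adjusted p = 7.90e-03). It was no longer called when shControl replicate 1 (0.24) or shControl replicate 2 (0.28) was dropped, or in a fit with no intensity trend.

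The Z-disc genes with no call included paralogs of Actn2 and Myoz2. Actn3, the alpha-actinin gene of fast fibres, had signals of 12515 and 13672 in shControl and 12137 and 14168 in shLSD1, so the groups overlapped, and its log2 fold change was 0.0036 (95% interval -0.18 to 0.18). Its sign turned without shControl replicate 1, without shLSD1 replicate 2 and with median centring. The log2 fold change of Actn2 was 1.26 below that of Actn3, a difference that was not tested. The array values of this difference, against the shControl mean, were 0.07 and -0.07 in shControl and -1.19 and -1.33 in shLSD1, so the groups did not overlap. Myoz1, the fast-fibre relative of Myoz2, was dim and overlapping, at 75.7 and 111 against 103 and 84.0, with an interval of -0.65 to 0.70. Myoz3 had signals of 8.89 and 12.1 against 60.2 and 34.3, all under the filter. The filamin gene Flnc measured -0.08 (interval -0.38 to 0.21), and Mypn, the myopalladin gene, measured -0.33 (interval -0.71 to 0.05) with groups that did not overlap.

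**Figure D2:**
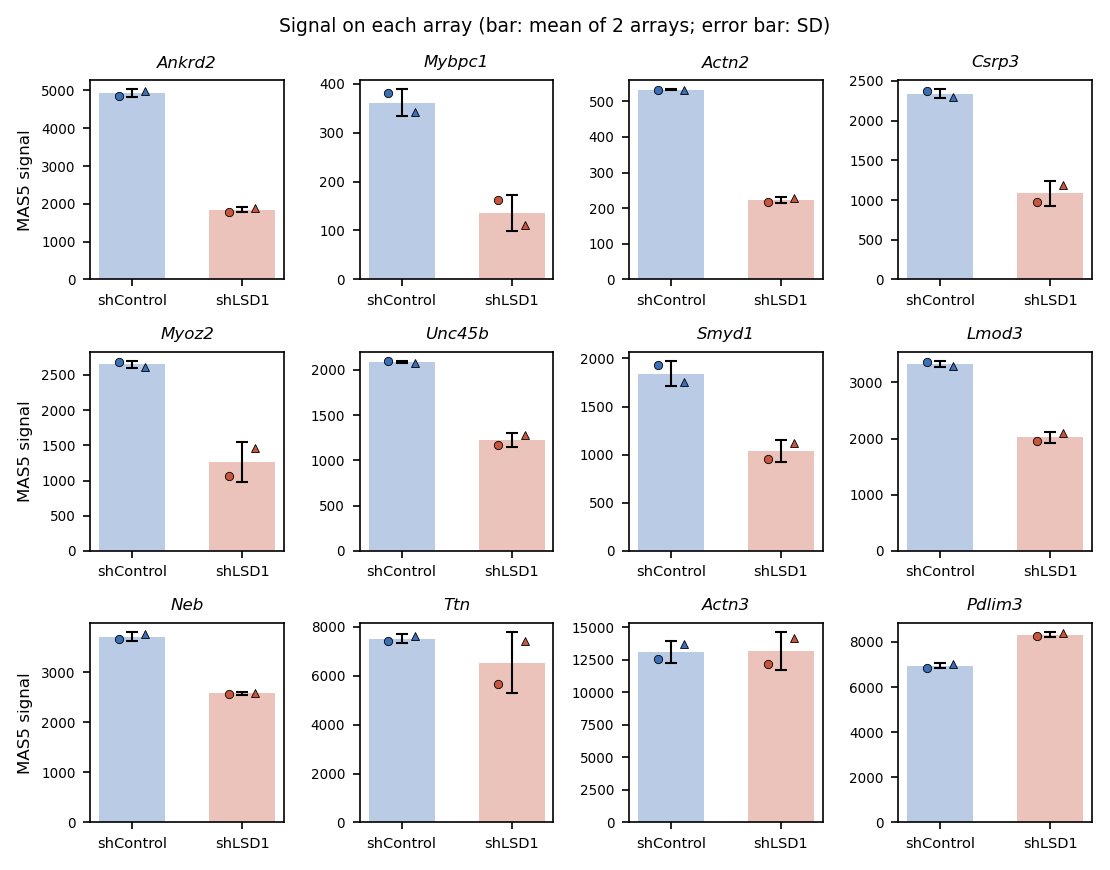
MAS5 signal of 12 genes on each array, on linear axes that start at 0; bars are means of 2 arrays, error bars are SD, circles are replicate 1 and triangles replicate 2. Ankrd2, Mybpc1, Actn2, Csrp3 and Myoz2 stood at 37.5% to 47.0% of control, while Actn3 and Ttn overlapped between the groups and Pdlim3 was higher in shLSD1.

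Of the 4 giant scaffold and nebulin-family genes, 1 fell and 3 had no call. Neb, whose product nebulin runs along the thin filament, had signals of 3655 and 3771 in shControl and 2562 and 2595 in shLSD1. It measured -0.53 (SE 0.05, limma adjusted p = 9.20e-04), with the shLSD1 arrays close to each other. Ttn, the titin gene, had signals of 7409 and 7648 against 5656 and 7411. One shLSD1 array therefore stood between the shControl arrays and the other below them, and the difference, -0.22 (SE 0.11, limma adjusted p = 0.230), did not pass. Without shLSD1 replicate 2 it was -0.41, and without shLSD1 replicate 1 it was -0.02. Nrap, which encodes an anchoring protein of assembling myofibrils, had 923 and 1040 against 591 and 818, with no overlap, and -0.50 (limma adjusted p = 0.0635). Without shLSD1 replicate 2 it measured -0.73, and with median centring it passed. Nebl, the gene for the cardiac relative nebulette, was near the filter at 55.6 and 70.6 against 93.3 and 70.3.

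All 6 of the M-band and myosin-binding genes had negative values, and 5 fell. In all 6 both shLSD1 signals lay below both shControl signals, as in 29.4% of all tested genes. Mybpc1, the slow-muscle myosin-binding protein C gene, had signals of 380 and 343 in shControl and 162 and 111 in shLSD1, a log2 change of -1.43 (SE 0.21, limma adjusted p = 3.90e-03). Mybpc2, its fast-muscle relative, had 267 and 244 against 148 and 139, a log2 change of -0.83 (SE 0.16, limma adjusted p = 0.0128). Mybph, which encodes a smaller protein of the same family, had 21969 and 23405 against 15330 and 17258, a log2 change of -0.48. Both the slow and the fast form were thus lower in the knockdown. Dropping shControl replicate 1 removed the calls of Mybpc1 (-1.36) and Mybpc2 (-0.77), and dropping shControl replicate 2 removed those of Mybpc2 (-0.89) and Mybph (-0.43). Mybph was also not called with no intensity trend.

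The myomesins crosslink thick filaments at the M-band. Myom1 had signals of 1131 and 1106 in shControl and 601 and 688 in shLSD1, a log2 change of -0.80 (SE 0.09, limma adjusted p = 1.51e-03). Myom2 had 4723 and 5321 against 3728 and 4171, a log2 change of -0.35 (SE 0.08, limma adjusted p = 0.0215) that was not called after dropping shControl replicate 1 (-0.43) or shControl replicate 2 (-0.26), with no intensity trend, or with the mean of its probe sets. Myom3 had 744 and 819 against 625 and 702 and measured -0.24 (interval -0.47 to -0.01, limma adjusted p = 0.149). The log2 fold change of Myom1 was 0.45 below that of Myom2 and 0.56 below that of Myom3, differences that were not tested.

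Among genes for thin filament ends and actin turnover, 5 of 6 tested fell and 1 had no call. The leiomodins start and lengthen actin filaments from their pointed ends: Lmod2 had signals of 1203 and 1283 against 702 and 818, and Lmod3 had 3365 and 3286 against 1953 and 2095. They stood at 61.0% and 60.8% of control, with log2 changes of -0.71 (SE 0.09, limma adjusted p = 2.79e-03) and -0.72 (SE 0.06, limma adjusted p = 5.06e-04). The transcripts of Klhl40 and Klhl41, whose Kelch proteins stabilise leiomodin 3 and nebulin, were lower as well. Klhl40 had 1501 and 1360 against 840 and 1047 (-0.61), and Klhl41 had 7225 and 7497 against 4803 and 5210 (-0.56, SE 0.06, limma adjusted p = 9.20e-04). Cap2, which encodes a cyclase-associated protein enriched in muscle that takes part in actin turnover, had 387 and 373 against 222 and 231 (-0.75). In these 5 both shLSD1 signals lay below both shControl signals, as in 29.4% of all tested genes. Neither Cap2 nor Klhl40 was called after dropping shControl replicate 1 (-0.72 and -0.54) or shControl replicate 2 (-0.77 and -0.68), nor was Klhl40 with no intensity trend.

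Tmod1, the gene for the pointed-end cap tropomodulin, was the exception. It had signals of 1772 and 1130 in shControl and 859 and 1472 in shLSD1, so that the arrays within each group differed more than the groups did. Its log2 fold change was -0.33 (SE 0.27), -0.72 without shLSD1 replicate 2 and 0.06 without shLSD1 replicate 1. Tmod4 had signals of 30.9 and 38.8 against 47.0 and 46.6, under the filter.

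The chaperone genes of filament assembly fell in 3 of 4 cases. Unc45b, which encodes the myosin chaperone of striated muscle, had signals of 2097 and 2082 in shControl and 1167 and 1278 in shLSD1, a log2 change of -0.77 (SE 0.07, limma adjusted p = 6.56e-04). Smyd1, a methyltransferase gene whose product works with that chaperone on myosin, had 1936 and 1752 against 956 and 1122, a log2 change of -0.83 (SE 0.09, limma adjusted p = 1.51e-03). These genes stood at 58.5% and 56.2% of control. Hspb7, a small heat shock protein gene of muscle, had 510 and 582 against 390 and 425, a log2 change of -0.42 (SE 0.11, limma adjusted p = 0.0447). It was not called after dropping shControl replicate 1 (-0.52), shControl replicate 2 (-0.33) or shLSD1 replicate 1 (-0.36), with no filter, with no intensity trend, or with the mean of its probe sets (-0.20). Cryab, the alpha-B-crystallin gene, had 11424 and 11550 against 10648 and 11662, with a log2 fold change of -0.04 (interval -0.17 to 0.08).

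Of 4 tested genes for desmin filaments, Xin proteins and attachment, 1 fell and 3 had no call. Xirp1, which encodes the actin-binding Xin protein, had signals of 923 and 1074 in shControl and 556 and 702 in shLSD1, a log2 change of -0.67 (SE 0.13, limma adjusted p = 0.0125) that was not called after dropping shControl replicate 2 (-0.56) or with no intensity trend. Des, the gene for the intermediate filament protein desmin, had 16031 and 15819 against 14157 and 15709, a small step of -0.09 (interval -0.22 to 0.03). Smpx, a small muscle protein gene, measured -0.08 (interval -0.24 to 0.08), and the LIM protein gene Fhl1 had 18900 and 18597 against 17197 and 20724, 0.01 (interval -0.17 to 0.19). Without shLSD1 replicate 2, Des measured -0.17, Smpx -0.18 and Fhl1 -0.12, and without shLSD1 replicate 1 Fhl1 measured 0.14.

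Both genes of titin-linked stress sensing fell. Ankrd2, which encodes a stretch-responsive ankyrin repeat protein that binds titin, had signals of 4855 and 4996 in shControl and 1795 and 1899 in shLSD1. The means were 4926 ± 99.9 and 1847 ± 73.5 (SD, n = 2 each), a log2 change of -1.42 (SE 0.06, limma adjusted p = 3.27e-05) with the smallest adjusted p among the tested genes of the list. Capn3, the gene for the muscle protease calpain 3, which also binds titin, had 505 and 547 against 368 and 386 and fell by 0.48 (SE 0.11, limma adjusted p = 0.0212). Dropping shControl replicate 1 (-0.54) or shControl replicate 2 (-0.42) removed that call, as did a fit with no intensity trend and the mean of its probe sets (-0.47).

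Bright genes were looked at apart. Of the 6 with a mean signal over 10000, 2 fell (Synpo2l and Mybph) and the values ran from -0.57 to 0.01. Of all 301 tested genes that bright, 15.9% fell. Of the other 31, 21 fell. The part of signal strength in these counts was not tested.

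Other probe sets of the same genes were read on the same arrays and are therefore a check of the probe, not of the sample. They existed above the filter for 12 genes, 8 of them with a call. In 6 of those 8 every further probe set pointed the same way. For Ldb3 they measured -0.85 and -0.18 against -0.36, and for Mybpc1 -1.09 and -0.65 against -1.43. For Synpo2l they measured -0.61 and -1.04 against -0.57, and for Myom2 -0.28 and -0.25 against -0.35. For Smyd1, 2 other probe sets measured -0.76 each and 2 dim ones 0.04 and 0.14, and with the mean of all its probe sets Smyd1 measured -0.64 and lost its call. For Hspb7 they measured -0.25 and 0.06. Ttn was negative on every probe set tested, from -0.59 to -0.18, and a dim probe set of Des measured 0.29. The mean of probe sets also takes in those under the filter, as for Synpo2l, Myom2, Cryab and Fhl1.

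**Figure D3:**
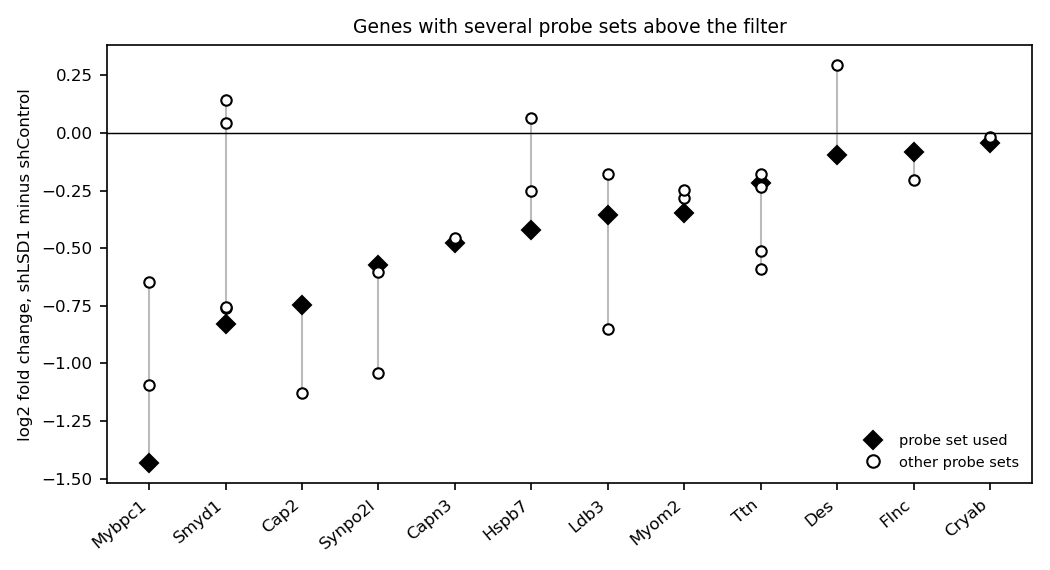
Log2 fold change (shLSD1 minus shControl) of each probe set above the filter for the 12 genes with more than 1; diamonds are the probe sets used and open circles the others. Most circles lie on the same side of 0 as their diamond, with circles above 0 for Smyd1, Hspb7 and Des.

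Other genes of the same structures, and relatives expressed more widely, were read in the same fit. Of 40 other Z-disc and M-band genes 28 were tested, 8 fell and 1 rose (median -0.07), and 20 values were negative. That list mixes muscle genes with widely expressed ones such as Actn1, Actn4 and Cap1. Its median therefore does not stand for the Z-disc and M-band alone. Over all tested genes 7.09% fell and 8.75% rose. Of 18 other chaperone genes 17 were tested, 3 fell and 3 rose (median 0.07). Those with the smallest adjusted p at the Z-disc and M-band were Palld (-0.41), the RING finger gene Trim54 (-0.63, SE 0.09, limma adjusted p = 3.29e-03), Pdlim2 (-0.44) and Obsl1 (-0.63), while the ubiquitous Cap1 rose (0.20). With 1 array left out Pdlim2 ranged from -0.51 to -0.37, Obsl1 from -0.76 to -0.50 and Cap1 from 0.16 to 0.24. Obsl1 and Cap1 were not called after dropping either shControl array, nor Pdlim2 after dropping shControl replicate 2. With no intensity trend none of these 3 was called, and with the mean of probe sets neither Obsl1 nor Palld was, nor Cap1 with no filter. Together the other Z-disc, M-band and chaperone genes gave 11 falls and 4 rises in 45 tested, and without shControl replicate 1 or 2 they gave 5 and 3 falls and 0 rises.

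Small heat shock protein genes differed among themselves. Hspb3 had signals of 459 and 411 in shControl and 165 and 176 in shLSD1, a log2 change of -1.35 (SE 0.14, limma adjusted p = 9.56e-04). Hspb2 fell by 0.36 and Hspb8 by 0.27, while Hspb6 rose by 0.45. Hsp90aa1, which acts with Unc45b on myosin, rose by 0.18, and Hspa1b rose by 0.62. The calls of Hsp90aa1 (0.17 to 0.20 with 1 array left out), Hspa1b (0.36 to 0.87), Hspb6 (0.41 to 0.48) and Hspb8 (-0.29 to -0.25) were lost without either shControl array, that of Hspb6 also without shLSD1 replicate 1, and that of Hspb2 (-0.42 to -0.30) without shControl replicate 2. With no intensity trend Hsp90aa1, Hspa1b, Hspb2 and Hspb8 were not called, with no filter Hsp90aa1, Hspa1b and Hspb6 were not, and with the mean of probe sets Hsp90aa1, Hspa1b and Hspb8 were not, nor was Hspa1b with robust variances.

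For several of the genes that fell a relative outside the list was tested too, and these relatives were chosen after their values were seen. Ankrd1 measured -0.02 (limma adjusted p = 0.808) beside -1.42 for Ankrd2, and Csrp1 0.11 (limma adjusted p = 0.154) beside -1.12 for Csrp3. Unc45a measured 0.12 (limma adjusted p = 0.671) beside -0.77 for Unc45b, and Smyd2 0.07 (limma adjusted p = 0.502) beside -0.83 for Smyd1. Other relatives measured -0.19 (Csrp2, beside Csrp3), 0.19 (Smyd5, beside Smyd1), -0.13 (Actn1) and 0.08 (Actn4, both beside Actn2), none of them called. Some relatives did fall. Ankrd23, of the same family as Ankrd2, had signals of 552 and 538 against 355 and 347 (-0.63, limma adjusted p = 6.13e-03), and Synpo2 had 3394 and 3332 against 1954 and 2693 (-0.55, limma adjusted p = 0.0271) beside -0.57 for Synpo2l. Neither was called after dropping either shControl array (-0.65 to -0.62 and -0.78 to -0.32 with 1 array left out), nor was Synpo2 with no filter, no intensity trend or robust variances. Of the PDZ-LIM genes related to Ldb3 and Pdlim3, Pdlim5 fell (-0.31, limma adjusted p = 0.0206), as did Pdlim2, while Pdlim1 (0.13), Pdlim4 (0.02) and Pdlim7 (-0.30) had no call. Pdlim5 (-0.39 to -0.22 with 1 array left out) was not called on dropping either shControl array, on averaging its probe sets or with no intensity trend. The differences between relatives were not tested.

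**Figure D4:**
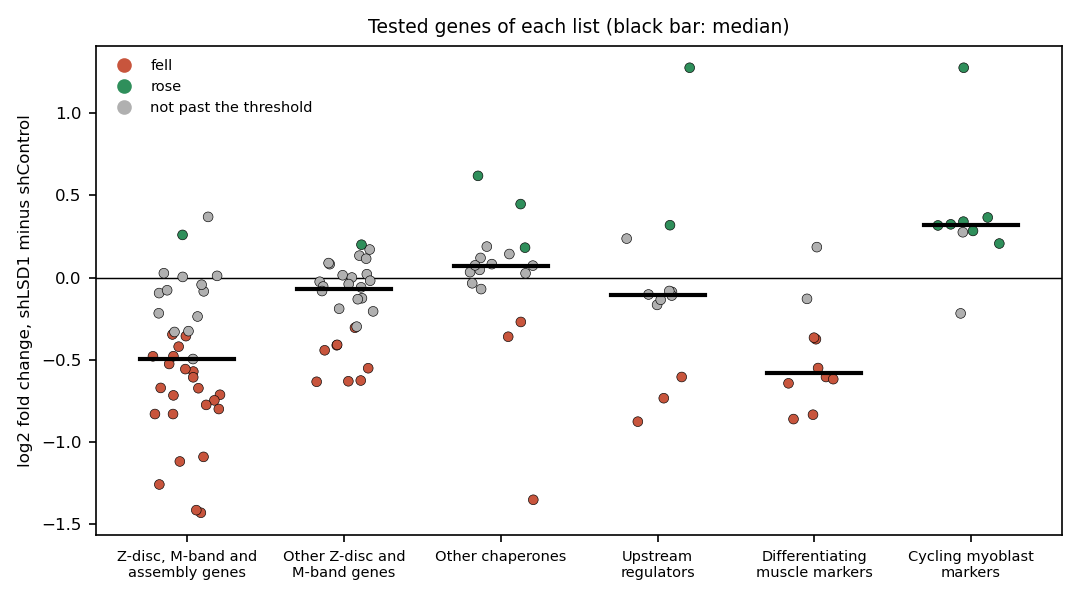
Log2 fold change (shLSD1 minus shControl) of every tested gene in 6 lists, with the median as a black bar; red points fell, green points rose and grey points did not pass. The Z-disc, M-band and assembly genes (median -0.50) and the differentiating muscle markers (median -0.58) lie mostly below 0. Of the other Z-disc and M-band genes (median -0.07), a list that also holds widely expressed genes such as Cap1, 20 of 28 lie below 0. The other chaperones (median 0.07) lie on both sides. The cycling myoblast markers (median 0.32) lie mostly above 0.

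Regulators of muscle genes did not move as one group. Of 12 tested, 3 fell and 2 rose. Myog, the factor of terminal differentiation, had signals of 19611 and 19911 in shControl and 12044 and 14013 in shLSD1 (-0.61, SE 0.07, limma adjusted p = 1.47e-03), with shLSD1 replicate 1 the lower, as it was for most of the Z-disc and M-band genes. Mef2c had 2337 and 2100 against 1049 and 1388 (-0.88, SE 0.13, limma adjusted p = 3.93e-03). Neither Myog nor Mef2c was called with no intensity trend. Tead4 fell by 0.73 (-0.75 to -0.72 with 1 array left out), which was not called after dropping shControl replicate 2. Myf5 rose, as given above, and Mrtfb rose by 0.32 (0.23 to 0.41), which was not called after dropping shControl replicate 1, shControl replicate 2 or shLSD1 replicate 2, with no filter, with no intensity trend or with the mean of its probe sets. Myod1 measured -0.17 (limma adjusted p = 0.319) and Srf -0.11 (limma adjusted p = 0.402).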

How the data were processed

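The authors deposited linear MAS5 signal intensities, 1 per probe set and array, made with Affymetrix Expression Console per the submitters' processing notes, with no version stated there. The mean signal after trimming 2% of probe sets at each end was 500.003 on every array, so each array had been scaled by 1 factor.

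Signals under 1 were set to 1 (505 to 704 of 45101 probe sets per array) before log2. Of the probe sets, 34945 had 1 gene symbol, 932 several and 9160 none, with 64 controls not used as genes, and 0 symbols changed when checked by gene ID against a gene table of GRCm38.p6. A gene was read from its brightest probe set, with the cross-hybridising kind avoided where another existed. Of 18193 genes, 10874 passed the filter on mean signal. Groups were compared two-sided with limma 3.58.1 in R 4.3.3, using lmFit, then eBayes with variance modelled on intensity (7.53 total degrees of freedom), and Benjamini-Hochberg adjustment. Intervals are 95% from the same fit. The fit was tested on simulated data in a pair of settings. With gene variances drawn from the prior that limma estimated, the share of false calls stayed under the threshold. With each gene's variance set to its posterior estimate, a setting tried first, that share exceeded the threshold. Calls may thus include more false ones than the threshold states. Noise was drawn independently for each gene and array in both settings. They therefore cannot speak to false calls from shifts that the genes of an array share. Promoters came from RefSeq, and figures from matplotlib 3.10.9.

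The genes, lists and tests were chosen with earlier results of these data known. Every gene of the main list could be named. Outside it the text names Kdm1a, the up to 4 (pathway lists) or 3 (marker lists) genes with the smallest adjusted p in each direction among those called, defining markers below the filter, Myod1, Myog, Mef2c and Srf, and relatives marked as chosen after their values were seen. Markers with no call in the differentiating muscle, cycling myoblast and fibroblast lists are named as well, added after their values were seen. Alternatives were the replicate number as a block, leaving out each array, quantile normalization, centring arrays on their medians, log2(signal + 32), no filter, a stricter one (75th percentile), a fit with no intensity trend, robust variances, averaging a gene's probe sets, and thresholds of 0.01 and 0.1. A filter whose median left out the control probe sets was added after seeing the data.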

Additional observations from a re-analysis of the deposited data

How the results depend on the processing

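Falls among the Z-disc, M-band and assembly genes numbered 23 and, with 1 array left out, 13 to 29, and 15 without the intensity trend. Rises numbered 1, 0 to 2 with 1 array left out, 0 in a fit with no intensity trend, and 2 (Pdlim3 and Fhl1) on averaging probe sets. The average for Fhl1 takes in a probe set under the filter, at 27.3 and 29.3 in shControl and 54.0 and 42.3 in shLSD1. The median of -0.50 ranged from -0.62 to -0.43 with 1 array left out. Over all tested genes falls went from 771 to a range of 228 to 1040 and rises from 951 to 347 to 1151 with 1 array left out. With the filter median taken without control probe sets, an alternative chosen after seeing the data, 10879 genes were tested and the counts were 23 and 1 for the list and 771 and 952 over all genes. Over all genes they were 262 and 377 with no intensity trend, 407 and 493 on averaging probe sets, 348 and 416 at a threshold of 0.01, and 1159 and 1434 at 0.1. Among the other Z-disc, M-band and chaperone genes falls went from 11 to 3 to 14 with 1 array left out and to 4 without the intensity trend. Rises went from 4 to 0 to 6 with 1 array left out, to 0 with no filter, to 1 without the intensity trend and to 0 at a threshold of 0.01. The causes were not tested. A fit with 1 array left out has fewer arrays and takes a gene's own spread from the group that keeps 2.

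Kdm1a passed in all 14 alternative fits, between -2.37 and -2.15. Of 505 values of single genes under these fits, 442 kept direction and side of the threshold, 37 lost a call, 10 gained one with the sign kept and 16 turned sign. The sign turns were in genes with no call in the fit reported. With 1 array left out they were Actn3 (-0.11 to 0.12), Myoz1 (-0.25 to 0.30), Flnc (-0.25 to 0.082), Tmod1 (-0.72 to 0.057), Cryab (-0.11 to 0.022), Fhl1 (-0.12 to 0.14) and Smpx (-0.18 to 0.026). With median centring they were Actn3 (-0.018) and Fhl1 (-0.012), and with quantile normalization Myoz1 (-0.013). With the mean of probe sets they were Cryab (0.23) and Des (0.10), each with a dim probe set included, that of Cryab under the filter.

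With the replicate number as a block, 25 of the genes fell and 1 rose, and 985 of all tested genes fell and 1236 rose. The block gave calls to Ttn (-0.22) and Nrap (-0.50), and all 23 falls passed. The other Z-disc, M-band and chaperone genes gave 12 falls and 4 rises. Same-numbered arrays deviated from their group means with a correlation of 0.0029 over tested genes. This pooled value cannot decide whether a number marks a shared day or culture, which no label states. No pairing was assumed. Signal over background limits Nebl, Myoz1, Myoz3 and Tmod4, all near or under the filter.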
